A study of Homo sapiens with 2 samples.

Results

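The plasminogen activator system was followed through 7 genes listed by symbol, all of them found among the 17249 rows of the deposited count table. They are the activators PLAU and PLAT, the urokinase receptor PLAUR, the plasminogen receptor PLGRKT, and the inhibitor serpins SERPINE2, SERPINB2 and SERPINF2. Poly(A)-selected RNA was sequenced from cells labelled as DU145, an established human prostate cancer line of epithelial origin, in 2 libraries. One library is labelled as DU145 cells that received si-P53RRA. The protocol gives 200 pmol of siRNA against P53RRA, a long noncoding RNA of the gene LINC00472, with fresh medium after 4 h and harvest 48 h later. The other is labelled only as DU145 cells and carries no treatment entry of its own. Its data column is named si-NC, and it is called the control. Both samples share their growth and treatment text, so that text does not set the control apart. It places the cells in medium with fetal bovine serum. The series asks whether P53RRA promotes ferroptosis in prostate cancer.

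Plasminogen is an inactive protease precursor that comes to cells with blood or serum. Urokinase (PLAU) and tissue-type activator (PLAT) cut it into plasmin, which digests fibrin and matrix proteins. The receptor encoded by PLAUR holds urokinase at the cell membrane, PLGRKT holds plasminogen there, and serpins stop the proteases by trapping them in a covalent complex. In prostate cancer and other carcinomas the urokinase arm is known for its link to invasion.

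Depth was 16030207 counts in the control (16042 genes detected) and 11942362 in the si-P53RRA library (15174 genes). With 1 library in each group no test was possible and no difference has a replicate check. Values in parentheses are 95% intervals of counting error alone. They treat each read as independent and may be too narrow, because reads that carry no molecular identifier may repeat a molecule. Words such as "higher" refer to the library labelled si-P53RRA, set against the control, and where a pair of values is given the control comes first. The targeted RNA, LINC00472, had 105 and 6 counts, 11.9-fold lower (5.29 to 33.2). The libraries differed widely: of 13532 genes with at least 1 CPM (counts per 1000000 of the scaled library) in either, 19.7% were higher by 2-fold or more and 23.2% lower. By 4-fold or more, 1400 of them were lower, LINC00472 included. Cell type markers differed as well. Of 16 mesenchymal and fibroblast markers, 14 were at least 2-fold lower and none higher. Their summed level was 13800 CPM in the control and 1570 CPM with si-P53RRA, where DCN, THY1 and FAP were at 0 counts. Of 14 epithelial markers 11 were in the table, and their sum was 399 and 2000 CPM. Of the 8 compared, 6 were higher by 2-fold or more and none was lower by that size. Among them KRT19 had 8 and 7052 counts and CLDN4 had 37 and 4737. EPCAM and GRHL2 were at 0 counts in the control library, and E-cadherin, CDH1, had 2 and 7 counts. EPCAM, which like E-cadherin is a defining gene of epithelial cells, had 50 counts in the si-P53RRA library, so both genes were at 0 or low in both libraries. The part of these marker differences in the values below was not tested. In bulk RNA, fewer cells of a type and less RNA per cell cannot be told apart. With 1 library per label, a difference in the cells themselves cannot be told apart from one that goes with si-P53RRA. This holds for every fold below.

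Promoter windows, 250 bases before to 50 after a start site, were matched for 5 of the 7 genes in RefSeq (build GRCh38.p14), all but PLAT and SERPINF2. Windows of 4 genes are shown: PLAUR, SERPINE2 and SERPINB2, which were lower in the si-P53RRA library, and PLAU, which was higher. Capitals mark the motifs searched on both strands, which do not overlap in these windows. For AP-1, a factor induced by growth and stress signals, the letters were TGANTCA. The TATA box, where the transcription machinery can be placed, was searched as TATAAA. A GC box, bound by SP1 and its relatives, was written GGGCGG. The cyclic AMP response element, CRE, was searched as TGACGTCA. For PLAU and SERPINE2, with 2 windows each, the one with more matches is printed.
PLAU, chr10:73910882-73911181, plus strand: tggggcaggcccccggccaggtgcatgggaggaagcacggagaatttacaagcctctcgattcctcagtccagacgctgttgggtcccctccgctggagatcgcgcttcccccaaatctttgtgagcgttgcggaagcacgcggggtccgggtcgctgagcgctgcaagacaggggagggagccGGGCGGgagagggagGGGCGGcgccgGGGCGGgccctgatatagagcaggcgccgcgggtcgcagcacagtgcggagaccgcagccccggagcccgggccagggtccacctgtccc
PLAUR, chr19:43670120-43670419, minus strand: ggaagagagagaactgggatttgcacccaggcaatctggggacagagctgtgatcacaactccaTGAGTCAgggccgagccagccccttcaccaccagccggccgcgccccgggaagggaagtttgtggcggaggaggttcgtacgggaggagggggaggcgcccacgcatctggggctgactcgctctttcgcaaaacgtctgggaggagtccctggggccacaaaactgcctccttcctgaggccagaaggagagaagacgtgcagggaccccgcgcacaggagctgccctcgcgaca
SERPINE2, chr2:224038591-224038890, minus strand: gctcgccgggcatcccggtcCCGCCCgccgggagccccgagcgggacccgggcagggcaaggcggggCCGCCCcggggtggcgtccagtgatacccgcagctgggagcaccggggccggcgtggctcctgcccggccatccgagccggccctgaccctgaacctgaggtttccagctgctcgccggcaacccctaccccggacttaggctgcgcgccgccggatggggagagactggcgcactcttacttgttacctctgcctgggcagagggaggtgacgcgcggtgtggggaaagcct
SERPINB2, chr18:63887455-63887754, plus strand: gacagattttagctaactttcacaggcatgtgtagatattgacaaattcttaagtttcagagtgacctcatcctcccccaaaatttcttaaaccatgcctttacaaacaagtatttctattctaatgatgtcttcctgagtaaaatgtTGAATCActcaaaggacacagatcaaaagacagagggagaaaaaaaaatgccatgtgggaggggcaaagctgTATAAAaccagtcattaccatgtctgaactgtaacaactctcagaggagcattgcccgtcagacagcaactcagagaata
The AP-1 letters occurred once in the PLAUR window, at position -186 from the start site, and once in the SERPINB2 window, at position -102. Across all 35116 promoter windows in the RefSeq table, 7.71% held these letters. The SERPINB2 window also held the TATA letters at position -30, found in 11.5% of all windows. GC box letters were present 3 times in the PLAU window shown, 2 times in the SERPINE2 window shown and not in those of PLAUR and SERPINB2. The PLAU window not shown held none and the SERPINE2 window not shown held 1. Because the printed windows were picked for more matches, the share to compare is 4 of the 7 windows, beside 45.0% of all windows. The CRE letters, held by 1.85% of all windows, were in none of the 7 windows of these 5 genes. These matches describe letters only. A match does not show that a factor binds there, and the lack of a match does not show that none does.

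Between the libraries the activators parted: PLAT was 12.1-fold lower in the si-P53RRA library, while PLAU was 1.59-fold higher. The urokinase receptor and both measurable serpins were lower by smaller amounts, and the plasminogen receptor was slightly higher. Of the 7 members, 6 reached 1 CPM in either library. On the log2(CPM + 0.5) scale used for all counts of genes, 1 of these 6 (PLAT) was lower by 2-fold or more and 0 were higher by that size, beside 23.2% and 19.7% of all genes compared. At 1.5-fold, 4 were lower (PLAT, PLAUR, SERPINE2 and SERPINB2) and 1 was higher (PLAU), beside 32.7% and 29.2% of all genes. The median log2 change of the 6 was -0.92, against -0.06 for all 13532 genes. The count of lower members rested on values close to 2-fold. It was 4 (PLAT, PLAUR, SERPINE2 and SERPINB2) when libraries were scaled on total counts, where 3463 of all genes were lower. With a pseudocount of 0.1 CPM it was 2, where 3265 of all genes were lower.

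**Figure D1:**
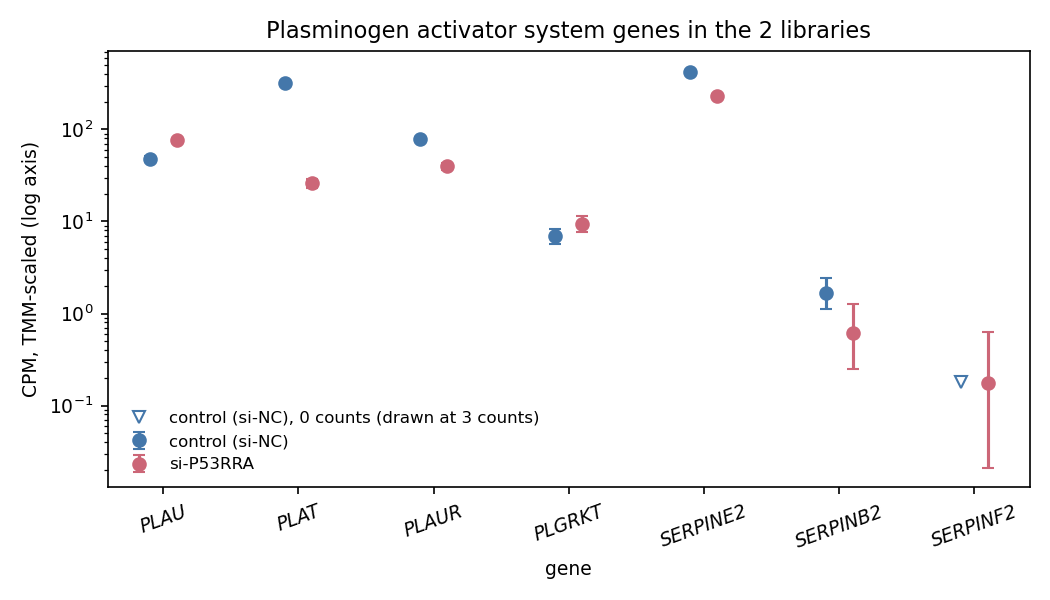
Scaled level in CPM (log axis) of each member in the control library (blue) and the si-P53RRA library (red), 1 library each, with exact Poisson 95% intervals of the counts. PLAT shows the widest gap, from 316 to 26.1 CPM, and SERPINF2 had 0 and 2 counts, the open triangle marking a count of 0 drawn at 3 counts.

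PLAT, the activator best known from endothelial cells and from clot dissolution, lies on chromosome 8. It had 5301 counts in the control and 298 with si-P53RRA, or 316 CPM (307 to 325) and 26.1 CPM (23.2 to 29.3). The ratio was 12.1-fold lower (10.8 to 13.6), a log2 change of -3.57 on the scale of log2(CPM + 0.5). Of the 13532 genes compared, 556 (4.11%) were lower by as much or more. By counts, PLAT stood at rank 490 of all genes in the control and at rank 6368 with si-P53RRA.

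PLAU, on chromosome 10, encodes urokinase, the activator that works at the cell surface. It had 803 and 870 counts, or 47.9 CPM (44.6 to 51.3) and 76.3 CPM (71.3 to 81.5). The level was 1.59-fold higher (1.45 to 1.76), with a log2 change of 0.67, short of the 2-fold size, and 27.1% of all genes compared were higher by as much or more. In the GENCODE 29 annotation an opposite-strand gene, C10orf55, shares 916 exon bases with PLAU. No source used here says whether the libraries kept the strand, so reads of the shared stretch cannot be told apart; C10orf55 itself had 4 and 19 counts.

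The ratio between the activators does not depend on how the libraries are scaled. Per base of the longest protein-coding transcript (2658 bases for PLAU and 2706 for PLAT), PLAU made up 13.4% (12.5 to 14.2) of the summed level of both activators in the control library. In the si-P53RRA library its share was 74.8% (72.2 to 77.3). The PLAU to PLAT ratio was 19.3 times as high there (16.5 to 22.5). PLAT was thus the more abundant activator RNA in the control, and PLAU with si-P53RRA.

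PLAUR, on chromosome 19, encodes the lipid-anchored receptor that binds urokinase and its precursor. It had 1326 and 454 counts, or 79.0 CPM (74.8 to 83.4) and 39.8 CPM (36.2 to 43.6). The level was 1.99-fold lower (1.78 to 2.21), and its log2 change of -0.98 lay just inside the 2-fold size. Receptor and ligand thus differed in opposite directions, and the PLAUR to PLAU ratio was 3.16 times as high (2.73 to 3.66) in the control as with si-P53RRA. For PLAUR the log2 change was -1.28, past the 2-fold size, once changes were adjusted for GC content and transcript length, a step added after the data were seen.

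PLGRKT, on chromosome 9, encodes a small membrane protein that binds plasminogen. It had 116 and 108 counts, or 6.91 CPM (5.71 to 8.29) and 9.47 CPM (7.77 to 11.4). The CPM intervals overlapped, and the ratio was 1.37-fold higher (1.04 to 1.80). Set against PLAU, the PLGRKT to PLAU ratio was 1.16 times as high in the control library, with an interval of 0.872 to 1.55 that includes 1.

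**Figure D2:**
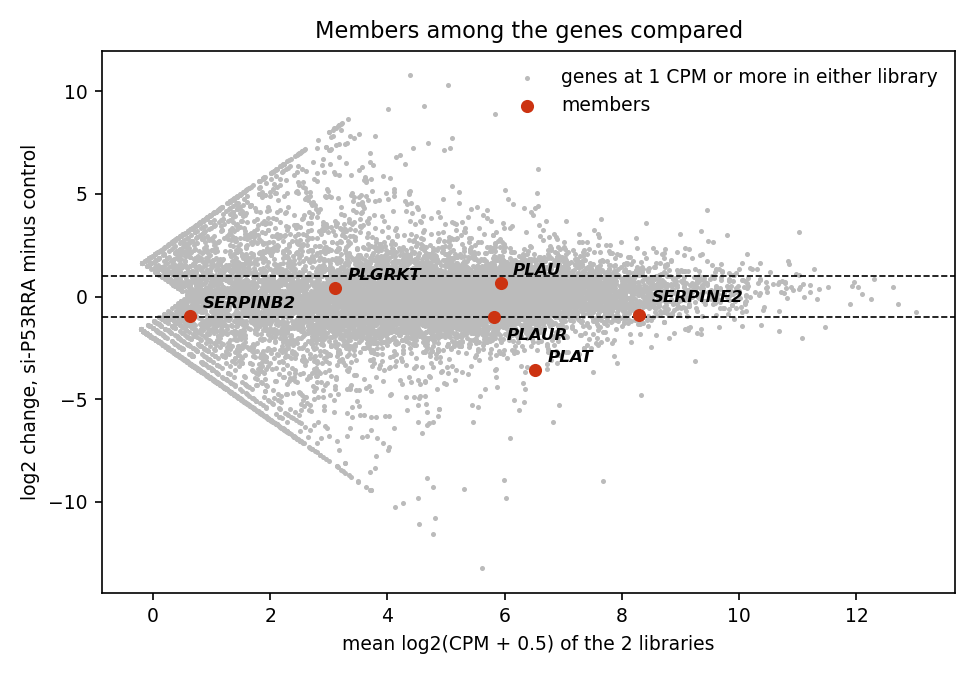
Log2 change of scaled level, si-P53RRA minus control (vertical axis), against the mean log2(CPM + 0.5) of both libraries (horizontal axis) for the 13532 genes compared (grey) and the 6 members among them (red). Dashed lines mark 2-fold; PLAT at -3.57 is the only member outside them.

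SERPINE2, on chromosome 2, encodes protease nexin 1, a secreted inhibitor of thrombin, urokinase, tissue-type activator and plasmin. It had the highest level of all members in both libraries, with 7155 and 2633 counts, or 426 CPM (417 to 436) and 231 CPM (222 to 240). The level was 1.85-fold lower (1.77 to 1.93), a log2 change of -0.88, and 25.5% of all genes compared were lower by as much or more. Scaled on total counts, the change was -1.02 and passed the 2-fold size.

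Relative to its target proteases, the serpin stood higher against PLAT and lower against PLAU. Per transcript length, the SERPINE2 to PLAT ratio was 1.42 in the control and 9.31 with si-P53RRA, 6.55 times as high (5.77 to 7.44). The SERPINE2 to PLAU ratio was 9.22 and 3.13, hence 2.94 times as high in the control library (2.64 to 3.28).

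SERPINB2, on chromosome 18, encodes plasminogen activator inhibitor type 2, a mostly intracellular serpin that inhibits urokinase. It had 28 counts in the control and 7 with si-P53RRA, or 1.67 CPM (1.11 to 2.41) and 0.614 CPM (0.247 to 1.26). The CPM intervals overlapped slightly, while the ratio was 2.72-fold lower (1.16 to 7.38). At this low level the pseudocount of 0.5 CPM shrank the log2 change to -0.96. In GENCODE 29, SERPINB10 shares 547 exon bases with SERPINB2 on the same strand.

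SERPINF2, on chromosome 17, encodes alpha-2-antiplasmin, the main plasma inhibitor of plasmin, known as a liver product. It had 0 and 2 counts, with an exact 95% upper limit of 0.220 CPM in the control. No fold is given because both counts lie under the floor of 3 counts. SERPINF2 was not detectable in the control at this depth, and was left out of the 6 genes compared.

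Per kilobase of transcript, the order in the control library was SERPINE2 (166 CPM per kb), PLAT (117), PLAUR (49.1), PLAU (18.0), PLGRKT (7.42), SERPINB2 (0.774) and SERPINF2 at 0. No neighbours in that order had overlapping counting intervals. In the si-P53RRA library the order of levels was SERPINE2 (89.8 CPM per kb), PLAU (28.7), PLAUR (24.7), PLGRKT (10.2), PLAT (9.65), SERPINB2 (0.285) and SERPINF2 (0.0768). There the intervals of PLAU (26.8 to 30.7) and PLAUR (22.5 to 27.1) overlapped, as did those of PLGRKT and PLAT and those of SERPINB2 and SERPINF2. On these lengths PLAT held the second place in the control and the fifth with si-P53RRA. With the median length of each gene's protein-coding transcripts, an alternative added after the data were seen, the orders of both of these pairs turned in the si-P53RRA library. PLAU and PLAUR then had 32.9 and 53.6 CPM per kb, and PLAT and PLGRKT had 14.2 and 10.2, which put PLAT in the fourth place. Together the 7 genes took 0.0919% of all control counts and 0.0366% of those with si-P53RRA.

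**Figure D3:**
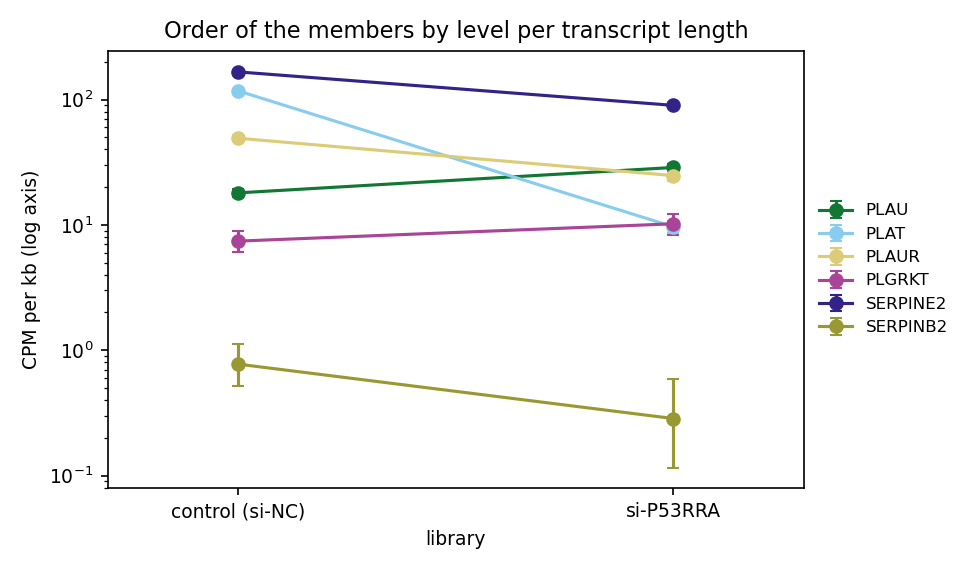
Level per transcript length in CPM per kb (log axis) of the 6 members with at least 1 CPM in either library, joined between the control and si-P53RRA libraries, with exact Poisson 95% intervals. The PLAT line, going from 117 to 9.65 CPM per kb, crosses those of PLAUR and PLAU; it ends beside PLGRKT at 10.2 CPM per kb, and above it when median transcript lengths are used.

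The genes nearest to SERPINE2, the most abundant member, in the plane of log2(CPM + 0.5) of the 2 libraries were CLTA, TIMP1 and HUWE1. CLTA, a clathrin light chain, had 434 and 241 CPM at a distance of 0.065. TIMP1, a metalloproteinase inhibitor, had 396 and 225 CPM, and HUWE1, a ubiquitin ligase, 414 and 214 CPM, at distances of 0.11 and 0.12. With 2 libraries such likeness is no more than a like level and a like fold.

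The rest of the system was described by 8 gene lists of 103 different genes, of which 61 were compared. Of these 61, 15 (24.6%) were higher by 2-fold or more and 30 (49.2%) lower, beside 19.7% and 23.2% of all genes, with a median log2 change of -0.79. FN1 in these lists is also a mesenchymal marker and KRT8 an epithelial one.

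Plasminogen itself, PLG, had 0 and 1 counts, so the substrate of the activators was not detectable as RNA in the control library at this depth. Among the enzymes that can activate urokinase or plasminogen, 3 of 8 in the table were compared. Of these, 1 was higher and 2 were lower by 2-fold or more, beside 19.7% and 23.2% of all genes. Coagulation factor XII, F12, which starts the contact pathway, had 39 and 839 counts and was 31.6-fold higher (23.0 to 44.8). The lysosomal cathepsins that can activate pro-urokinase were lower, CTSB by 3.39-fold (3.25 to 3.52) and CTSL by 2.77-fold (2.57 to 2.98).

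Of 5 other inhibitors compared, 2 were higher and 2 lower by 2-fold or more, beside 19.7% and 23.2% of all genes. SPINT2, a Kunitz inhibitor of membrane serine proteases, had 4 and 1789 counts, 658-fold higher (256 to 2420). Neuroserpin, SERPINI1, which inhibits tissue-type activator in the nervous system, had 32 and 102 counts, 4.69-fold higher (3.12 to 7.21). The matrix-bound Kunitz inhibitor TFPI2 had 2164 and 42 counts, 35.0-fold lower (25.8 to 48.7).

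Of 6 genes of plasminogen binding sites, 1 was higher and 2 were lower by 2-fold or more, beside 19.7% and 23.2% of all genes. ANXA2, the annexin that with S100A10 binds plasminogen and tissue-type activator, had 79351 and 19266 counts, 2.80-fold lower (2.76 to 2.84). Its relative ANXA1 was 2.09-fold lower (1.98 to 2.20). KRT8, an epithelial keratin that binds plasminogen on some carcinoma cells, was 4.67-fold higher (4.28 to 5.11).

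Of 7 genes listed around the clearance of protease and serpin complexes, 2 were higher and 2 lower by 2-fold or more. That was 28.6% each way, near the 19.7% and 23.2% of all genes. LRP1, the endocytic receptor that takes up urokinase and tissue-type activator bound to serpins, had 10939 and 574 counts, 13-fold lower (11.9 to 14.1). MRC2, a collagen receptor that associates with the urokinase receptor, was 81.5-fold lower (57.7 to 119). Higher were VLDLR, a relative of LRP1, at 5.35-fold (3.95 to 7.35), and the sorting receptor SORL1 at 6.39-fold (5.09 to 8.11).

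Among the partners of the urokinase receptor, 6 of 8 were lower and 1 was higher by 2-fold or more. Of all genes, 23.2% were lower and 19.7% higher by that size. The median log2 change of the 8 partners was -2.22. The vitronectin receptor subunit ITGAV was 14.1-fold lower (11.5 to 17.5) and the fibronectin receptor subunit ITGA5 5.10-fold lower (4.77 to 5.46). Caveolin 1, CAV1, was 7.56-fold lower (7.08 to 8.08) and the growth factor receptor EGFR 4.36-fold lower (3.85 to 4.95). ITGA3, a laminin receptor subunit named after its value was seen, was the 1 that was higher, with a log2 change of 1.19.

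PLAUR is built of domains shared with the LY6 family. Of 8 other such genes compared, none was 2-fold higher and 4 were lower, beside 19.7% and 23.2% of all genes. LYPD1 had 617 counts against 0, at least 140-fold lower against 3 counts in the si-P53RRA library. LYNX1 had 137 against 0, at least 31.0-fold lower, and LY6K was 37.6-fold lower (14.5 to 139) with 4 counts left. LYPD6 was 2.91-fold lower (2.05 to 4.21). CD59, the complement regulator of this family, was abundant in both libraries at 7923 and 9363 counts; it was named after its values were seen.

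Of 16 plasmin substrates in the matrix and in growth factor activation, 6 were higher and 8 lower by 2-fold or more. These counts stand beside 19.7% and 23.2% of all genes. Fibronectin, FN1, had 23836 and 27 counts, 600-fold lower (412 to 911), and the hepatocyte growth factor HGF had 319 against 0, at least 72.3-fold lower. The collagenase MMP1, whose precursor plasmin can cut, had 6 and 1078 counts, 264-fold higher (121 to 722). MMP13 had 0 and 107 counts, at least 52.5-fold higher.

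**Figure D4:**
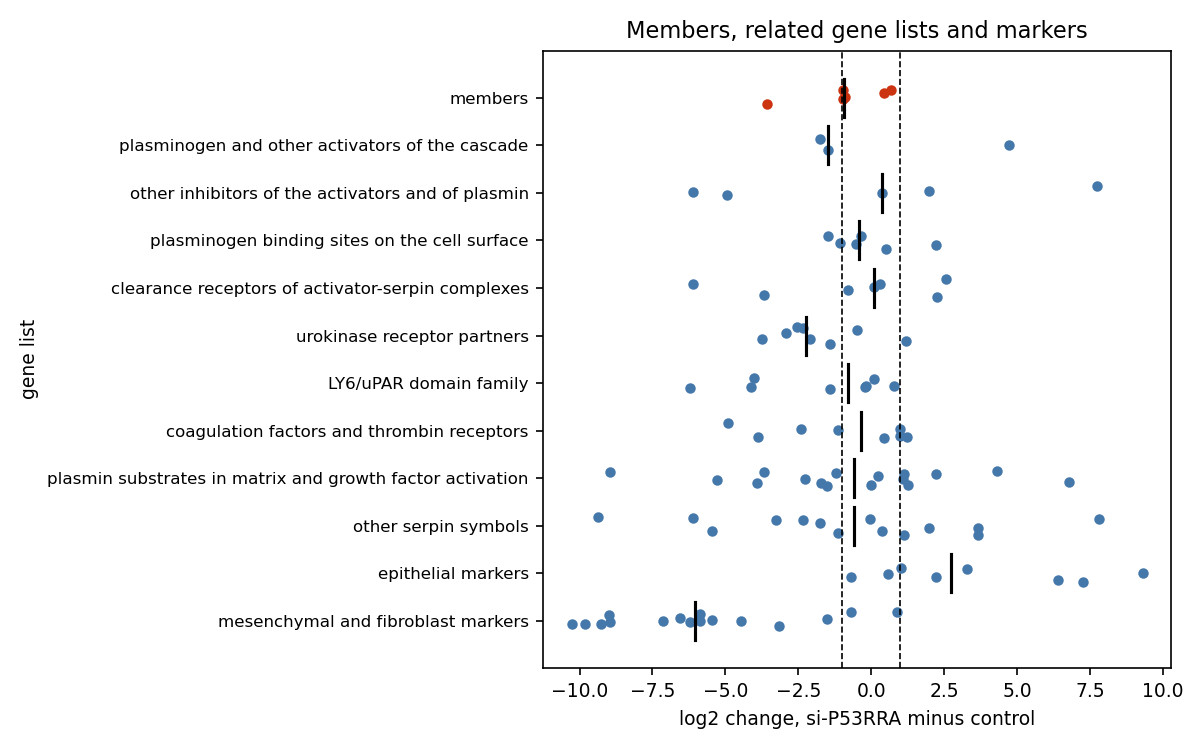
Log2 change, si-P53RRA minus control (horizontal axis), of each gene compared, by list: the 6 members (red), the 8 lists of the system, the other serpins, and epithelial and mesenchymal markers (blue). Black bars are list medians and dashed lines mark 2-fold; the mesenchymal markers have a median of -6.04 and the epithelial markers one of 2.75, or -6.50 and 3.41 with genes at 0 counts set at their bound.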

How the data were processed

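The authors deposited 1 table of raw counts per gene symbol with 2 columns; the whole numbers and unequal totals show no normalization. Reads were mapped to hg19, per the submitters' processing notes; the aligner, counter and annotation are not given in the sources that were used. The column named si-P53RRA matched that sample's title, and the si-NC column was taken as the control. Libraries were scaled with the TMM method of edgeR 4.0.16 (R 4.3.3), whose factors were 1.05 and 0.955. The log2 change was the difference of log2(CPM + 0.5), si-P53RRA minus control, among genes reaching 1 CPM in 1 library or both. Folds are ratios of CPM with exact conditional binomial 95% intervals. Counts have exact Poisson intervals, shares exact binomial ones, and ratios of ratios exact conditional ones. A fold against 0 counts is a bound against 3 counts. Lengths and overlaps came from GENCODE 29 (GRCh38), so only names and lengths are used. The procedure was run on simulated counts in which far fewer genes were changed than differ here. That run therefore cannot show how well the scaling holds for these libraries. Named were all 7 members and, in each list of the system and among the other serpins, at most 4 genes of at least 5 CPM with the largest change of at least 2-fold. Marker lists were described by their counts of changed genes, their sums, markers at 0 counts and a few other markers named after their values were seen. Also named were the 3 genes nearest to the most abundant member. A part of the genes this rule picks is not reported here. Members and lists were chosen with earlier results of these data known. The alternatives were other scalings (the median ratio from DESeq2 1.42.0), filters, pseudocounts and sizes of change.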

Additional observations from a re-analysis of the deposited data

How the results depend on the processing

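No paired analysis was possible because each group had 1 library, and for the same reason no library could be left out. The count of members at least 2-fold lower, 1 as reported, was 4 when scaled on total counts and 2 with a pseudocount of 0.1 CPM. It was 4 at 1.5-fold and 2 after the added correction for GC content and length. Of all genes, 3135 were at least 2-fold lower as reported, 3463 on total counts and 3265 with that pseudocount. After the correction, 2689 of the 12807 genes with GC content and length were. The count of members at least 2-fold higher was 1 at 1.5-fold and 0 otherwise. At 4-fold, 1129 of all 13532 genes compared were higher and 1400 lower. Of the 61 genes compared from the system's lists, 8 were higher and 20 lower by that size. At 1.5-fold, 29.2% of all genes were higher and 32.7% lower. The log2 change ranged over the settings from -3.70 to -3.48 for PLAT, 0.54 to 0.68 for PLAU, -1.28 to -0.95 for PLAUR, -1.02 to -0.86 for SERPINE2, 0.30 to 0.45 for PLGRKT and -1.31 to -0.42 for SERPINB2, and no member changed sign. SERPINB2 has no value at a minimum of 5 CPM. The median over all genes was -0.18 on total counts and -0.06 as reported, and the share of higher among called genes was 40.4% and 46.0%. The PLAUR share of the summed level of PLAUR and PLAU per transcript length in the si-P53RRA library was 46.3%, and 62.0% with median transcript lengths. With that length, the PLAU share of both activators was 10.7% and 69.9%. Depth limits SERPINB2 and SERPINF2 most.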

Other observations

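Beyond the 3 members, 18 other serpin symbols were in the table, of which 14 were compared. Of these, 5 were higher by 2-fold or more and 7 lower, beside 19.7% and 23.2% of all genes compared. Their median log2 change was -0.59. SERPINH1, the collagen chaperone, had 16998 and 12 counts, 963-fold lower (551 to 1860). SERPING1, the C1 inhibitor of complement and contact proteases, had 359 counts against 0, at least 81.4-fold lower. SERPINB5, the epithelial serpin maspin, had 1 and 1440 counts, 2120-fold higher (380 to 83700). Directions thus differed within the family, beside the lower mesenchymal and higher epithelial markers in the same libraries; the part of those markers in these values was not tested.

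Of 8 coagulation genes compared, 2 were higher by 2-fold or more and 4 lower, beside 19.7% and 23.2% of all genes. Tissue factor, F3, which starts clotting, had 440 and 15 counts, 19.9-fold lower (12 to 35.9). The cofactor protein S, PROS1, was 5.77-fold lower (4.26 to 7.99), and the thrombin receptor F2RL2, with 332 and 2 counts, was 113-fold lower (31.0 to 936). F2RL1, the receptor cut by trypsin-like proteases, had 1456 and 2338 counts, 2.36-fold higher (2.21 to 2.52).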
